A study of Arabidopsis thaliana with 8 samples.

Results

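Alpha-expansins are secreted wall proteins that loosen the bonds between cellulose and other polysaccharides, so that a wall under turgor can yield and the cell can enlarge. They act best in an acid wall, which plasma membrane proton pumps provide, and brassinosteroid, auxin and PIF signalling act on many of their genes. In Arabidopsis the members differ mainly in the organ and cell type where their gene is used, such as leaves, guard cells, root hairs or lateral roots. The 10 alpha-expansin genes described here are EXPA1, EXPA3, EXPA4, EXPA5, EXPA6, EXPA8, EXPA9, EXPA10, EXPA11 and EXPA15. They were chosen by locus, with earlier results of these data known, and all 10 were among the 20701 loci of the mRNA table. A list of the 26 Arabidopsis alpha-expansins had 18 loci in that table, these 10 and 8 others.

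The seedlings were Arabidopsis thaliana of the accession Columbia, harvested 10 days after germination and grown at 22 °C with 18 h of light and 6 h of dark. The wild type was compared with plants carrying 35S:CAHB12, in which the constitutive 35S promoter drives a coffee homeodomain-leucine zipper I gene. The comparison asked whether transcript levels differed with that transgene. Each library came from a pool of 50 whole seedlings, and there were 2 wild-type and 2 transgenic mRNA libraries, called biological replicates in the labels. The design text speaks of a pair of transgenic lines, but no label ties a library to a line. In whole seedlings, fewer cells of a type and less RNA per cell cannot be told apart.

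Total counts ran from 15424261 to 19436632 per library. Root markers (8 of 8 listed, 1241 to 1617 CPM in sum, where CPM are read counts scaled to a common library size) and leaf markers (6 of 6, 20410 to 23500 CPM in sum) were present in all libraries. Seed storage and oil body markers (3 of 4 listed) differed most within a group, with sums of 17.2 and 43.1 CPM in wild type against 1.58 and 114.8 CPM with 35S:CAHB12. Of the floral markers only SEP3 was measured, at 0.517 to 3.001 CPM.

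The family was ordered by level per length, in RPKM (CPM per kilobase of the deposited length), averaged over the 4 libraries. EXPA4 (AT2G39700) was the most abundant alpha-expansin, at 75.9 ± 11.02 RPKM (SD over 4 libraries), with 95.3% of all loci at or below it. The deposited length is close to the span of the gene, introns included, and the RPKM carry that limit. EXPA1 (AT1G69530), known from guard cells, where it has been tied to stomatal opening, had 44.95 ± 8.72 RPKM, and EXPA6 (AT2G28950) had 44.3 ± 4.08 RPKM. These 3 genes were above the 90th percentile of the table. EXPA8 (AT2G40610), a gene on which the growth-promoting factor HBI1 acts, had 29.7 ± 8.50 RPKM, and EXPA15 (AT2G03090) had 25.8 ± 3.22 RPKM.

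Lower in the order stood EXPA3 (AT2G37640, EXP3 in the name table) at 19.3 ± 3.12 RPKM. EXPA10 (AT1G26770), an expansin of growing leaves and of the pedicel base, had 14.5 ± 2.14 RPKM. EXPA11 (AT1G20190) had 14.2 ± 0.916 RPKM. EXPA5 (AT3G29030), whose loss reduces growth and which responds to brassinosteroid, had 12.98 ± 2.57 RPKM. EXPA9 (AT5G02260) was lowest of the 10, at 6.85 ± 0.336 RPKM, with 51.7% of loci at or below it. Neighbours in the order had ranges over the 4 libraries that did not overlap at 3 places: below EXPA4, below EXPA3 (16.81 against 16.3 RPKM, nearly touching) and below EXPA5. All other neighbours overlapped in range, so EXPA1, EXPA6, EXPA8, EXPA15 and EXPA3 form a run of neighbours, as do EXPA10, EXPA11 and EXPA5. Some overlaps were narrow: 41.6 against 41.68 RPKM for EXPA6 and EXPA8, and 23.71 against 23.87 RPKM for EXPA15 and EXPA3. Compared within each library, EXPA6 always stood above EXPA8, and EXPA15 above EXPA3. The top and bottom members differed 11.1-fold in mean RPKM.

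**Figure D1:**
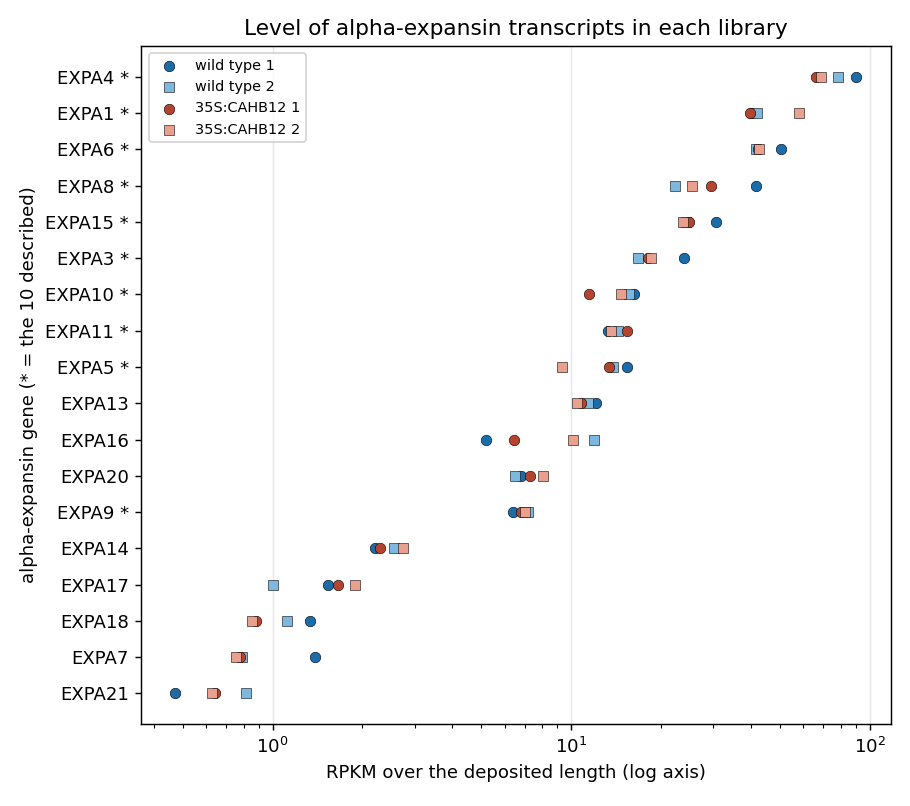
RPKM (horizontal log axis) of the 18 alpha-expansin genes in the table, one point per library, with the 10 described here starred. EXPA4 lies above all others in every library, EXPA9 falls among the other alpha-expansins, and EXPA7, EXPA18, EXPA17, EXPA14 and EXPA21 lie below 3 RPKM.

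The genes are spread over the genome, with 5 on chromosome 2 (EXPA3, EXPA4, EXPA6, EXPA8, EXPA15), 3 on chromosome 1 (EXPA1, EXPA10, EXPA11) and EXPA5 and EXPA9 on chromosomes 3 and 5. None of the 10 gene models overlaps another gene of the name table. The members are similar in sequence, and how reads matching more than 1 of them were counted was not given in the sources used here, so reads may be split between members.

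No alpha-expansin passed the test between transgenic and wild-type seedlings. In edgeR's quasi-likelihood test over 20298 genes, 0 of the 10 members had an adjusted p under 0.05, against 0.0838% of all genes, and 1 had an unadjusted p under 0.05, against 7.92% of all genes. DESeq2 and limma also called 0 members. The fold changes were small. The median log2 fold change of the members was -0.16, against 0.006 for all genes tested, and 7 of 10 were below 0, against 48.6% of all genes. The members were chosen with earlier results of these data known, so these contrasts are descriptions and not tests. The median went to 0.005 without wild-type replicate 1.

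EXPA4 had the lowest p. Wild-type replicates 1 and 2 stood at 158.3 and 137.5 CPM, and transgenic replicates 1 and 2 at 115.9 and 120.2 CPM. Both transgenic values lay below both wild-type values. The log2 fold change was -0.32 (SE 0.10, 95% interval -0.56 to -0.09), a 1.25-fold difference, with edgeR unadjusted p = 0.0131 and adjusted p = 0.515. With any 1 library left out the log2 fold change stayed between -0.43 and -0.22, with edgeR adjusted p from 0.0983 to 0.999.

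EXPA5 and EXPA10 were the other members whose groups did not overlap. EXPA5 had 31.5 and 28.3 CPM in wild type, and 27.4 and 19.15 CPM with 35S:CAHB12. Its log2 fold change was -0.36 (SE 0.17, 95% interval -0.75 to 0.03; edgeR adjusted p = 0.639), and it was -0.12 without transgenic replicate 2, the lowest library, and -0.65 without transgenic replicate 1. EXPA10 had 27.8 and 26.7 CPM in wild type, against 19.6 and 25.04 CPM with 35S:CAHB12. Here transgenic replicate 1 was the lowest library, and the log2 fold change of -0.29 (SE 0.14, 95% interval -0.60 to 0.03; edgeR adjusted p = 0.649) was -0.13 without it and -0.48 without transgenic replicate 2. In all, 3 of the 10 members had groups that did not overlap with the transgenic group lower, against 19.3% of all genes.

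EXPA1 was the member with the highest log2 fold change. Its wild-type libraries had 66.9 and 69.9 CPM, and the transgenic ones 66.4 and 96.7 CPM. Transgenic replicate 2 stood apart, and the other 3 libraries lay close together. The log2 fold change of 0.25 (SE 0.16, 95% interval -0.12 to 0.63; edgeR adjusted p = 0.731) was -0.04 without that library.

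EXPA8 varied most between replicates. Wild-type replicates 1 and 2, at 70.6 and 37.9 CPM, were the highest and the lowest of the 4 libraries, and the transgenic ones lay between them at 49.7 and 42.96 CPM. The log2 fold change was -0.22 with the widest error of the family (SE 0.25, 95% interval -0.79 to 0.35; edgeR adjusted p = 0.836). It was -0.62 without wild-type replicate 2, where EXPA8 passed (edgeR adjusted p = 0.0224) on the spread of the transgenic pair, the lone wild-type library being assumed to vary alike, and 0.29 without wild-type replicate 1 (edgeR adjusted p = 0.965). In a fit with terms for genotype and replicate number, EXPA8 was the 1 member of 10 that differed between replicates 2 and 1, against 2.88% of all genes (log2 difference -0.56, SE 0.12, edgeR adjusted p = 0.0171). At an unadjusted p under 0.05 stood 5 of the 10 (EXPA1, EXPA3, EXPA5, EXPA8 and EXPA15), against 14% of all genes. EXPA8 was lower in replicate 2 of both genotypes, and it did not pass when no normalization factors were used. The labels do not say what the replicate numbers share.

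EXPA6, EXPA15 and EXPA3 shared a pattern in which wild-type replicate 1 was high and the other 3 libraries lay together. EXPA6 had 113.5 CPM in that library and 93.8, 95.6 and 96.4 CPM in the others. EXPA15 had 54.8 CPM there and 43.35, 44.3 and 42.4 CPM elsewhere. EXPA3 had 51.3 CPM there and 36.1, 38.8 and 39.9 CPM elsewhere. Their log2 fold changes of -0.11, -0.18 and -0.15 became 0.03, 0.0004 and 0.12 without wild-type replicate 1.

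EXPA9 and EXPA11 were the steadiest members. EXPA9 ranged from 13.3 to 14.95 CPM over the 4 libraries, with wild type at both ends. EXPA11 had 17.7 and 19.1 CPM in wild type, and 20.4 and 18.1 CPM with 35S:CAHB12. The 95% intervals of their log2 fold changes were -0.26 to 0.32 and -0.22 to 0.35, the groups overlapped for both, and changes within these bounds are not resolved with 2 libraries a group.

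**Figure D2:**
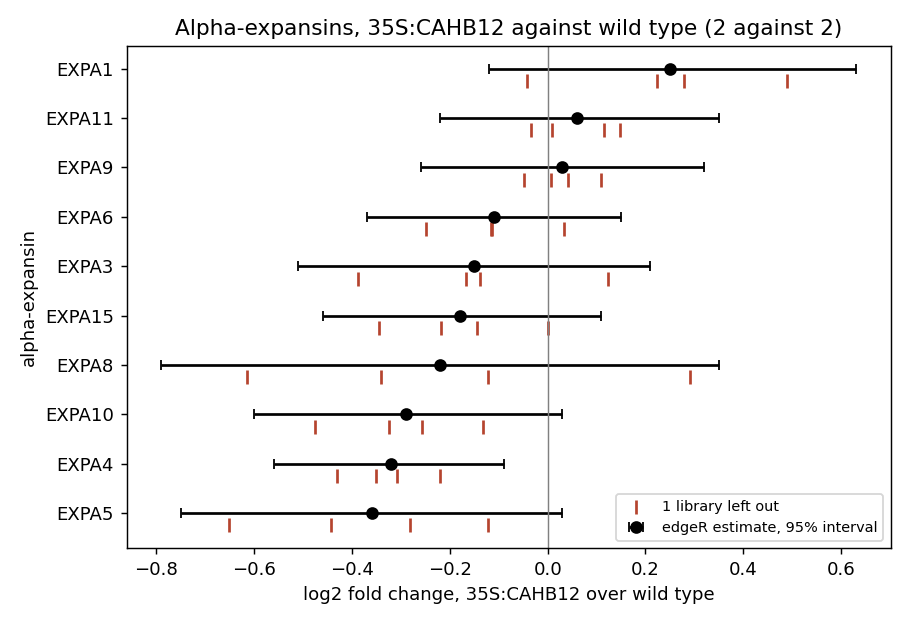
Log2 fold change of each alpha-expansin, transgenic over wild type, with the 95% interval of edgeR's estimate (black) and the estimates with 1 library left out (red ticks). EXPA4 alone has an interval that does not reach 0 before adjustment (-0.56 to -0.09), and the ticks cross 0 for EXPA1, EXPA3, EXPA6, EXPA8, EXPA9, EXPA11 and EXPA15.

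Wild-type replicate 1 was the highest library for most members. It had the highest CPM of the 4 for 7 of the 10 members, all but EXPA1, EXPA9 and EXPA11, where the same held for 29.3% of all genes tested. The 10 genes summed to 605.8 and 507.5 CPM in wild-type replicates 1 and 2, and to 492.4 and 515.4 CPM in the transgenic libraries. The 2 groups thus overlapped in sum, with means of 556.7 ± 69.5 and 503.9 ± 16.3 CPM (SD, n = 2), and without wild-type replicate 1 the log2 ratio of the means went from -0.14 to -0.01. Marker values in that library were mixed. The summed seed markers stood at 17.2 CPM there, against 1.58 to 114.8 CPM in the others, and SEP3 at 3.001 CPM against 0.517 to 1.454 CPM. The summed root hair markers were highest there, at 22.3 CPM against 15.99 to 20.8 CPM. So were the summed leaf markers, at 23500 CPM against 20410 to 21110 CPM. The summed root markers were not, at 1311 CPM against 1241 to 1617 CPM. Of the root hair markers, COBL9, LRX1 and RHD2 were highest in wild-type replicate 1. RHD6 was highest in wild-type replicate 2 and PRP3 in transgenic replicate 2. Of the leaf markers, LHCB1.1, CAB3 and RBCS3B were highest in wild-type replicate 1. RBCS1A and SPCH were highest in transgenic replicate 2, and FAMA was lowest in wild-type replicate 1. The part of these tissues in the expansin values was not tested.

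**Figure D3:**
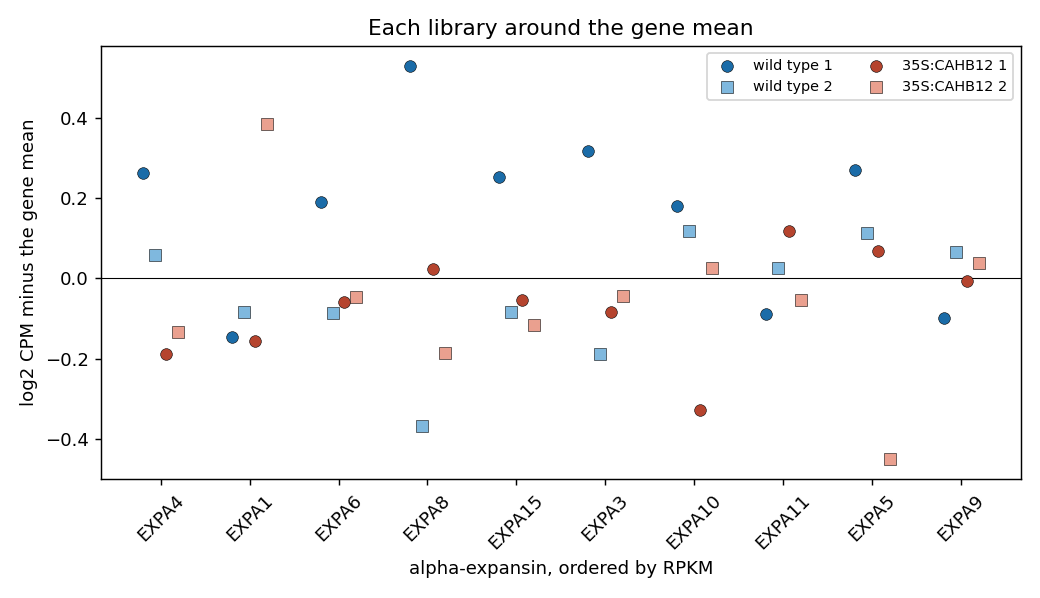
Log2 CPM of each alpha-expansin in each library minus the gene's mean over the 4 libraries. Wild-type replicate 1 is the top point for 7 genes, transgenic replicate 2 is the top point for EXPA1 and the bottom point for EXPA5, and EXPA8 spreads widest within wild type.

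The 3 tested genes closest to the mean pattern of the 10 members over the 4 libraries, by Euclidean distance of log2 CPM centred on each gene's mean, were AT1G65710 (0.00834), AT2G35120 (0.0115) and AT2G21120 (0.0129). That mean pattern was 0.17 and -0.04 in wild type and -0.07 and -0.06 with 35S:CAHB12, so likeness here means a high wild-type replicate 1.

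The share of each member in the reads of the 10 genes does not depend on how libraries are scaled. EXPA4 took 26.1% and 27.1% of these reads in wild type but 23.5% and 23.3% with 35S:CAHB12, with no overlap between groups. The shares of the other 9 members overlapped. Among all genes tested, the CPM of 39.4% did not overlap between groups in either direction, and on CPM the same held for 3 of the 10 members. No such background was computed for shares of family reads, so the 1 of 10 has no like figure beside it. The exact binomial 95% intervals, which cover counting error only, were 25.3 to 27.0% and 26.2 to 28.0% in wild type against 22.6 to 24.5% and 22.4 to 24.2% with 35S:CAHB12. EXPA1 took 11.04% and 13.8% in wild type, and 13.5% and 18.8% with 35S:CAHB12, with transgenic replicate 2 above the rest. As the shares of a library are parts of the same whole, that high share by itself lowers the EXPA4 share in transgenic replicate 2. EXPA8 took 11.7% and 7.46% in wild type, with the transgenic libraries between them at 10.1% and 8.34%. EXPA6 stayed between 18.5% and 19.4% in all 4 libraries. With 2 libraries a group, an exact permutation test cannot reach significance for such a share, and none was run.

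**Figure D4:**
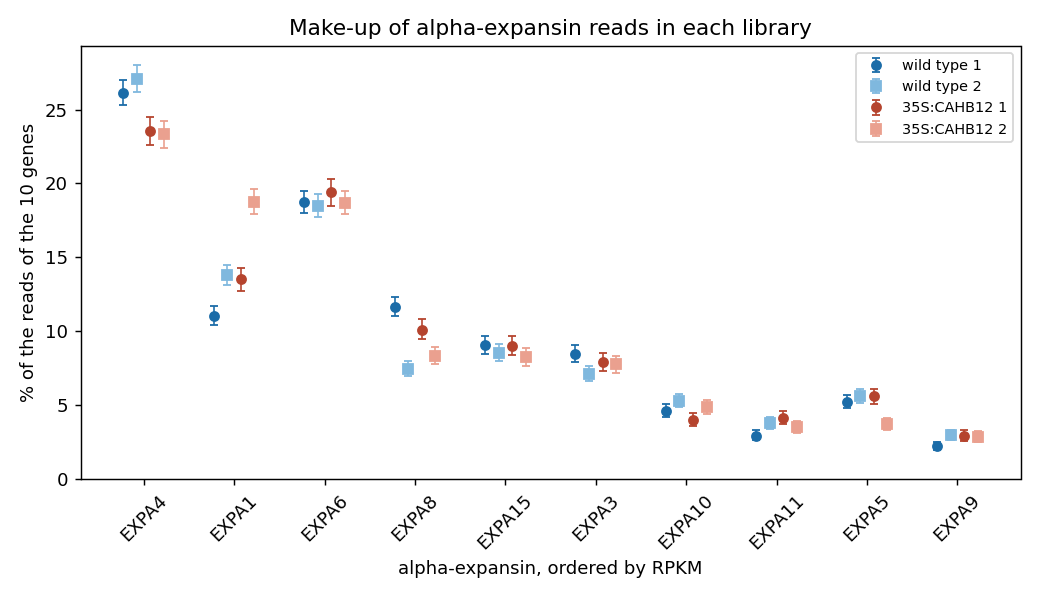
Percent of the reads of the 10 genes that each alpha-expansin took in each library, with exact binomial 95% intervals. EXPA4 stands at 26.1% and 27.1% in wild type against 23.5% and 23.3% with 35S:CAHB12, and EXPA6 holds between 18.5% and 19.4%.

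The 8 other alpha-expansins were tested too, and 0 passed in edgeR, DESeq2 or limma (0 at an unadjusted edgeR p under 0.05). EXPA7 and EXPA18, expansins of root hairs, had 1.501 ± 0.586 and 1.76 ± 0.221 CPM in wild type, and 1.06 ± 0.022 and 1.25 ± 0.0258 CPM with 35S:CAHB12 (SD, n = 2), with edgeR log2 fold changes of -0.48 and -0.49 (SE 0.38 and 0.30). The 5 root hair markers measured had log2 fold changes below 0 as well, against 48.6% of all genes. Their median was -0.26, with COBL9 and LRX1 at -0.63 and -0.26. None passed, and 1 had an unadjusted edgeR p under 0.05, against 7.92% of all genes. The 5 markers summed to 22.3 and 20.2 CPM in wild type against 15.99 and 20.8 CPM with 35S:CAHB12. Their part in the values of EXPA7 and EXPA18 was not tested. EXPA14 and EXPA17, which act in lateral root formation, had log2 fold changes of 0.07 and 0.51. EXPA13, EXPA16, EXPA20 and EXPA21 had -0.14, -0.06, 0.20 and -0.05. EXPA16 varied between libraries more than its group means differed, at 7.02 and 16.2 CPM in wild type, and 8.72 and 13.7 CPM with 35S:CAHB12. In the fit with genotype and replicate number, EXPA16 differed between replicates 2 and 1, as did 2.88% of all genes. It was higher in replicate 2 (log2 difference 0.93, SE 0.15, edgeR adjusted p = 0.00238), the opposite direction to EXPA8. Over these 8 genes the median log2 fold change was -0.06.

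Of the beta-expansins and expansin-like genes, 6 of 10 were measured, and 0 passed in edgeR, DESeq2 or limma with no term for replicate number. All 6 had log2 fold changes below 0, against 48.6% of all genes, with a median of -0.43, lower than that of the 10 alpha-expansins. An unadjusted edgeR p under 0.05 was reached by 4 of the 6, against 7.92% of all genes. EXLB1 (AT4G17030), an expansin-like gene, had 29.8 and 29.0 CPM in wild type, and 21.7 and 18.7 CPM with 35S:CAHB12 (log2 fold change -0.54, SE 0.12, edgeR adjusted p = 0.267). EXLA3 (AT3G45960) had 1.92 and 1.55 CPM against 0.948 and 0.491 CPM (log2 fold change -1.26, SE 0.40, edgeR adjusted p = 0.515). Among more abundant relatives, the beta-expansin gene EXPB3 had a log2 fold change of -0.33 and EXLA1 of -0.05.

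Among other genes of wall loosening and growth, 0 passed in edgeR, DESeq2 or limma with no term for replicate number. At an unadjusted edgeR p under 0.05 stood 1 of the 9 proton pumps, 3 of the 22 xyloglucan endotransglucosylases and 1 of the 15 hormone and PIF genes. The share over all genes was 7.92%. Of the 9 plasma membrane proton pumps, which acidify the wall, 7 had log2 fold changes below 0 (median -0.23), against 48.6% of all genes. AHA2 (AT4G30190), the main pump gene of roots, had 647 and 691 CPM in wild type, and 528 and 531 CPM with 35S:CAHB12 (-0.34, SE 0.10, edgeR adjusted p = 0.455), and AHA8 had -0.35. The 22 xyloglucan endotransglucosylases, which cut and rejoin wall xyloglucan, split into 9 below and 13 above 0 (median 0.09), with XTH23 at -0.57 and XTH24 at 0.70. Of the 9 primary wall cellulose synthesis genes, 7 were below 0 and 2 above (median -0.03), with CESA2 and CESA5 at -0.18 and -0.16. The 9 SAUR genes, which promote acid growth, leaned the other way, with 1 below and 8 above 0 (median 0.23). SAUR9 and SAUR23 stood at 0.95 and 0.51 (SE 0.45 and 0.29). SAUR9 was scarce, at 0.362 to 0.921 CPM, and the groups of SAUR23 overlapped. The 9 genes summed to 47.7 and 60.4 CPM in wild type, and to 40.3 and 88.6 CPM with 35S:CAHB12. The SAUR19 group are near-identical neighbours, so reads can be shared between them. The 15 brassinosteroid and PIF regulators split into 6 below and 9 above 0 (median 0.05), with PIF5 at -0.59 and BR6OX2 at 0.38. Among the tissue markers, 0 passed in edgeR with no term for replicate number. Root markers had 2 below and 6 above 0 (median 0.05), with PYK10 at 0.30 and NRT2.1 at -0.65. Leaf markers had 4 below and 2 above 0 (median -0.06). LHCB1.1 and CAB3 stood at -0.44 and -0.26, and RBCS1A, RBCS3B, SPCH and FAMA between -0.10 and 0.10. Seed markers had a median of 1.07 (CRC 1.75, OLEO1 1.07). An unadjusted edgeR p under 0.05 was reached by 2 of the 8 root and 1 of the 6 leaf markers, against 7.92% of all genes. The seed values had wide errors (SE 1.3 for CRC and 0.8 for OLEO1), and their groups overlapped.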

How the data were processed

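Whole-seedling mRNA libraries (2 wild-type, 2 transgenic, grouped by title; 4 µg of RNA each) were used. The small RNA table was not used here. Bowtie, BWA 0.5.8c, edgeR and, as genome build, TAIR9 are named in the submitters' processing notes, and which tool made which value was not given in the sources used here. Read counts per locus are raw, per the file headers. The deposited CPM and RPKM were made by the authors from these counts and served as a check. The length behind the deposited RPKM, another unit (bases), was 0.939 times the whole gene span in the median over 20420 loci matched in the name table (TAIR10.1), so levels per length include introns. Every listed locus had at least 11 counts in some library.

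CPM and RPKM in the report were computed with TMM factors. Tests used edgeR 4.0.16 in R 4.3.3 (filterByExpr, glmQLFit, glmQLFTest, no covariate) with Benjamini-Hochberg adjusted p over all 20298 genes, called under 0.05. They were also run on simulated counts with the same dispersion for every gene and no replicate effect. Genes here differ in spread, so that run does not show how the test performs for these members. SE is the log2 fold change over the root of F. A count of 0 allows up to 0.155 to 0.192 CPM (3 counts). Replicates differed beyond counting noise (chi-square per degree of freedom 10.2 and 11.1), and p-values measure the spread between these pools only. Alternatives used DESeq2 1.42.0, limma 3.58.1, other scalings and filters, a replicate block and each library left out. Figures used Python 3.11.15 and matplotlib 3.10.9. All 10 members, every other listed alpha-expansin and the 2 genes of lowest p per further list were to be named; EXPB3 and EXLA1 were added after their values were seen. The members and lists were chosen with earlier results of these data known.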

Additional observations from a re-analysis of the deposited data

How the results depend on the processing

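The count of alpha-expansins called was 0 under RLE factors, no factors, no filter, a filter of 1 RPKM, DESeq2, limma with pseudocounts of 0.1, 0.5 and 1, robust fitting and adjusted p under 0.1, and 0 to 1 with 1 library left out (EXPA8, without wild-type replicate 2). The median log2 fold change ranged from -0.334 to 0.00464 and the log2 ratio of the summed level from -0.272 to -0.0102 with 1 library left out, nearest 0 or above it without wild-type replicate 1. Those fits gave EXPA1 -0.0417 to 0.49, EXPA3 -0.39 to 0.12, EXPA4 -0.43 to -0.22, EXPA5 -0.65 to -0.12, EXPA6 -0.25 to 0.0337, EXPA8 -0.62 to 0.29, EXPA9 -0.0493 to 0.11, EXPA10 -0.48 to -0.13, EXPA11 -0.035 to 0.15 and EXPA15 -0.34 to 0.000401. A lone library of a group is assumed there to vary like the other group. Outside these fits no member changed sign.

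Among all genes tested, 17 were called, against 76 by DESeq2, 10 by limma at each pseudocount, 31 with robust fitting, 41 at adjusted p under 0.1, and 16 to 411 with 1 library left out. With the replicate number as a block 596 were called and no member was, the lowest edgeR adjusted p being 0.0511 (EXPA4) and 0.0762 (EXPA5), with a median of -0.15. Of the other genes named, EXLB1, AHA2, XTH24, PIF5, LHCB1.1 and CRC passed in that fit (edgeR adjusted p = 0.00677, 0.0327, 0.000195, 0.000558, 0.0128 and 0.0463). CRC had no consistent direction there: its log2 ratio of transgenic over wild type was -4.1 in replicate 1 and 2 in replicate 2. The labels do not say that the numbers pair the pools. Deviations of same-numbered pools correlated across genes at 0.228. The count of members that differed between replicates 2 and 1 was 1 (EXPA8) with TMM factors, RLE factors or no filter, and 0 with no normalization factors. With 2 libraries a group and SEs of 0.10 to 0.25, small changes of a member are not resolved.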
